A study of Homo sapiens with 4 samples.

Results

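The contacts described here are those of the HGFAC promoter, measured as 80 pairs of genomic anchors out of 1125468 pairs seen in 4 SMC1 HiChIP libraries. The pairs were selected by position, as every pair with an anchor overlapping chromosome 4 positions 3434000 to 3450000 (hg19). The gene itself was picked for its change between the genotypes, from summed contacts at promoters, so that change is given as a description without a test. All 80 pairs used 1 anchor of 14.4 kb, from 3434514 to 3448920, which the authors' deposited table of differential loops marks as the HGFAC promoter. In HiChIP, stretches of chromatin in contact are ligated to each other and those bound by a chosen protein, here the cohesin subunit SMC1, are pulled down with an antibody. Each ligated fragment is read as a paired-end tag (PET).

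The libraries came from A673, an established Ewing sarcoma cell line. STAG2-null cells, mutated with Cas9 and grown as clones from single cells, gave 2 libraries, and wild-type cells gave 2 libraries. The sample titles give neither the number of clones nor any further allele or agent. In the authors' deposited loop tables, the STAG2-null count columns carry different numbers and the wild-type ones the letters NT. The names alone do not say what these mean. No title or column name states that a group's libraries were separate cultures, so the spread between libraries may be technical. Libraries held 661881 to 765017 PETs. STAG2 loss and the identity of the cells could not be read from contacts, which do not measure transcripts. Of 12 Ewing sarcoma genes listed, only CAV1 (200 to 342 PETs per library) and NR0B1 (22 to 39 PETs) had a promoter placed on 1 anchor.

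HGFAC encodes a serine protease of blood plasma that is made mainly in the liver and cleaves the inactive precursor of hepatocyte growth factor. The cleaved factor activates the receptor tyrosine kinase MET on target cells. Cohesin is a ring-shaped complex that extrudes loops of chromatin, often until it meets bound CTCF, and each ring carries a STAG subunit, STAG1 or STAG2. In the RefSeq order of protein-coding genes, RGS12, which encodes a regulator of G protein signalling, lies upstream of HGFAC, and DOK7, whose product organises the neuromuscular synapse, lies downstream.

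The 250 bases before the HGFAC start are shown because they are the promoter that the anchor is named for. They come from RefSeq (GRCh38.p14, chr4:3441718-3441967, plus strand), a different build from that of the contacts, and no position was converted.

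HGFAC: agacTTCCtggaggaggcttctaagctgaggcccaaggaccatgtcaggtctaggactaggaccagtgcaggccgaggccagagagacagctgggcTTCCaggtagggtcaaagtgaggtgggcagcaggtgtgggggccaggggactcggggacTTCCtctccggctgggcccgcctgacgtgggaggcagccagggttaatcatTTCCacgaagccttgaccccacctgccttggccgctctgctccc

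The capitals mark the 4 matches to the ETS core GGAA, the motif bound by FLI1 and its relatives. All lie on the minus strand and so read TTCC here, and 92.7% of 35116 promoters of the same length hold at least 1 on either strand. The letters CCCTC, for which CTCF is named, had 0 matches on either strand (66.6% of promoters hold them), and the TATA box TATAAA had 0 (10.7%). The 4 matches do not overlap each other. They are matches of letters in this window alone. The HGFAC anchor as a whole, which is far wider, is marked for CTCF in the authors' deposited table.

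In wild-type cells, whose PETs also entered the change that HGFAC was picked on, the HGFAC anchor ranked 5 of 502 anchors in the first 10 Mb of chromosome 4 by its PETs. It held 231 wild-type PETs, against a median of 32, and 1.3% of the 79850 anchors of the genome held more. It was also wide, ranking 7 of 502 by width against a median of 2.52 kb. Per kb of anchor it held 16.03 wild-type PETs, against a median of 11.8, and ranked 166. The high rank by total PETs therefore went with a wide anchor, and per length its level was moderate.

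The anchor held 103 PETs in wild-type 1 and 128 in wild-type 2, against 55 in STAG2-null 1 and 45 in STAG2-null 2. Both STAG2-null libraries lay below both wild-type libraries. As normalised PETs, which are PETs per 1000000 PETs of the library after TMM scaling, this was 162 ± 7.14 in wild-type and 72.3 ± 11.2 in STAG2-null cells (SD, n = 2), a wild-type level 2.24 times the STAG2-null level. The log2 change in edgeR's model over all anchors was -1.16 ± 0.19 (SE).

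**Figure D1:**
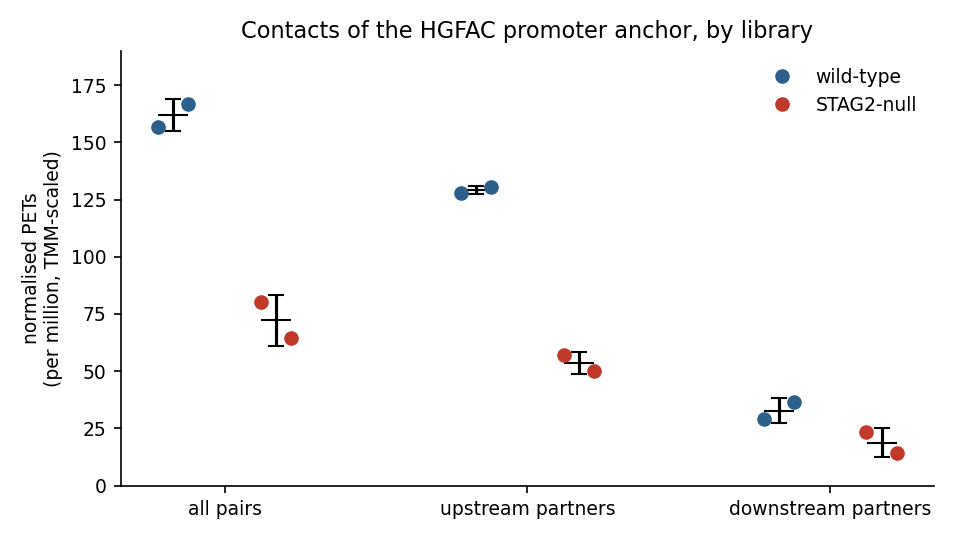
Normalised PETs (vertical axis, PETs per 1000000 after TMM scaling) of the HGFAC anchor in each library, for all pairs, upstream partners and downstream partners. Points are libraries, horizontal bars the group means and error bars the SD (n = 2). The STAG2-null points lie below the wild-type points in all 3 sets.

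Contacts of the HGFAC anchor ran mostly upstream, the side of RGS12 in the gene order. Upstream partners numbered 51 and held 84 and 100 wild-type PETs and 39 and 35 STAG2-null PETs. Downstream partners numbered 29 and held 19 and 28 wild-type PETs and 16 and 10 STAG2-null PETs. The groups did not overlap on either side. The log2 ratio of mean normalised PETs was -1.27 upstream and -0.80 downstream.

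The upstream share of HGFAC PETs was 81.6% (95% Wilson interval 73.0 to 87.9) and 78.1% (70.2 to 84.4) in wild-type 1 and 2. It was 70.9% (57.9 to 81.2) and 77.8% (63.7 to 87.5) in STAG2-null 1 and 2. The intervals, which cover counting error only, overlapped between the genotypes. Both wild-type shares lay above both STAG2-null shares, but 2 against 2 libraries cannot pass a threshold of 0.05 (the smallest p of a two-sided exact permutation test is 0.333).

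Over all libraries the anchor held 331 PETs. Of the 80 pairs, 41 rested on 1 PET in all, 62 on at most 4, and 9 reached 10 or more. These 9 held 180 PETs, 54.4% of the total. PETs were seen in both genotypes for 28 pairs, in wild-type alone for 40 and in STAG2-null alone for 12. The pairs of wild-type alone held at most 4 PETs each and those of STAG2-null alone at most 2, so at this depth no single pair could be called specific to a genotype. Partners lay between 9.90 kb and 1.71 Mb away.

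The strongest partner lay 97.8 kb upstream, from 3338699 to 3349089. The authors' deposited table marks this anchor for CTCF, for FLI1 and for H3K27ac, a mark of active enhancers and promoters, and A673 cells carry the EWS-FLI1 fusion, which binds DNA through FLI1. The HGFAC anchor is marked there for CTCF and as a promoter, and for neither FLI1 nor H3K27ac. The pair held 21 and 20 PETs in wild-type 1 and 2 and 9 and 7 in STAG2-null 1 and 2. The groups did not overlap, and the log2 change in edgeR was -1.39 ± 0.43 (SE). Its share of the anchor's PETs was 20.4% and 15.6% in the wild-type and 16.4% and 15.6% in the STAG2-null libraries, which overlapped.

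The partner 68.9 kb upstream, from 3365022 to 3380605, carries the H3K27ac mark and neither CTCF nor FLI1 in the same table. It held 8 and 13 wild-type PETs and 2 and 1 STAG2-null PETs. With 3 PETs in the STAG2-null group, the wild-type level was 6.81 times the STAG2-null level, with an exact 95% binomial interval of 2.03 to 35.7. This interval and those of the other partners cover only the counting error of PETs pooled by genotype.

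The partner 21.1 kb upstream, from 3416030 to 3425104, is marked for CTCF alone. It held 4 and 11 wild-type PETs and 1 and 3 STAG2-null PETs, and the wild-type level was 3.65 times the other (1.16 to 15.1). The partner 50.8 kb upstream, from 3389456 to 3392427, held 8 and 4 wild-type PETs and 1 and 2 STAG2-null PETs (3.89 times, 1.05 to 21.5). In both, the STAG2-null libraries lay below the wild-type ones, by as little as 1 PET at 21.1 kb and by 2 PETs at 50.8 kb. Flags for the partners other than those at 21.1, 68.9 and 97.8 kb were not used here.

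Farther upstream, 3 partners held fewer PETs. The one at 189.0 kb, from 3245144 to 3260330, had 2 and 6 wild-type and 3 and 0 STAG2-null PETs. The one at 256.3 kb, from 3183973 to 3186959, had 5 and 2 against 2 and 2 PETs, and the one at 330.5 kb, from 3107213 to 3115294, had 5 and 3 against 2 and 2 PETs. Only the last kept the groups apart, and the binomial intervals of all 3 ratios included 1.

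Downstream, 2 partners reached 10 PETs. The partner at 12.7 kb, from 3453718 to 3455196, held 3 and 6 wild-type and 2 and 4 STAG2-null PETs. The one at 47.8 kb, from 3476670 to 3502443, held 3 and 6 wild-type and 5 and 2 STAG2-null PETs. In both the groups overlapped, with wild-type over STAG2-null ratios of 1.46 (0.464 to 4.98) and 1.25 (0.414 to 3.95).

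Of the 9 partners with at least 10 PETs, 5 kept both STAG2-null libraries below both wild-type libraries. Over all 39602 pairs with at least 10 PETs this held for 18% and over the 228 other such pairs of the first 10 Mb of chromosome 4 for 41.2%. The 9 partners held 130 wild-type and 50 STAG2-null PETs, so they reached 10 PETs largely through wild-type. Because HGFAC was picked on this contrast, nothing is read from the count or from the intervals above.

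**Figure D2:**
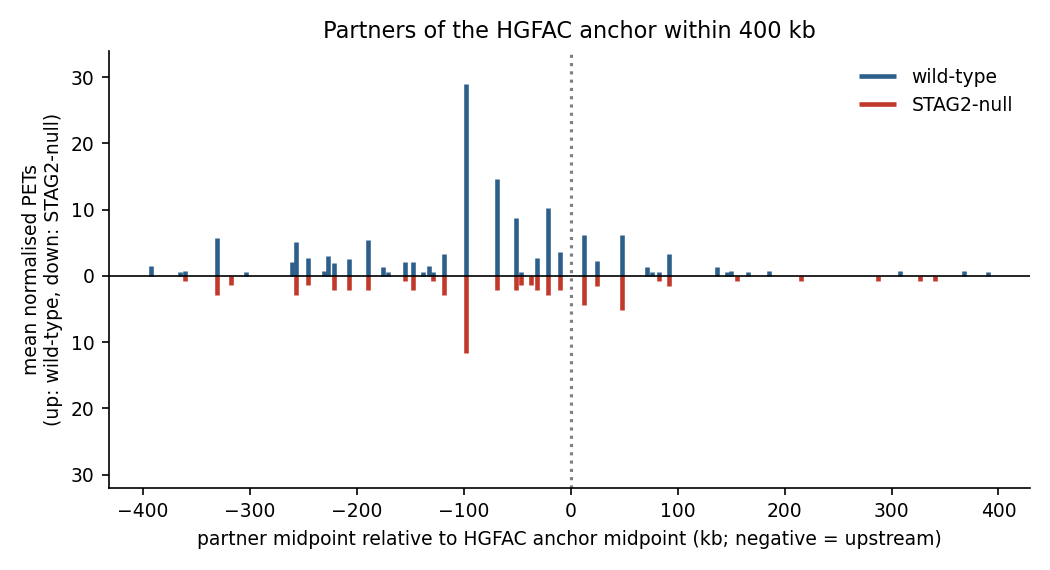
Mean normalised PETs per partner (vertical axis; wild-type drawn upward, STAG2-null downward) against the distance in kb from the midpoint of the HGFAC anchor to that of the partner, negative upstream, within 400 kb. The tallest bars stand 97.8 kb upstream in both genotypes, and the bar at 68.9 kb is the one most reduced among those of at least 20 PETs.

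The smaller pairs moved the same way. The 71 pairs with fewer than 10 PETs held 44 and 57 wild-type and 28 and 22 STAG2-null PETs, a log2 ratio of -0.97, and the 62 pairs with at most 4 PETs stood at -1.35. Leaving out the strongest partner gave -1.13, and leaving out the strongest and the second gave -1.01. The groups stayed apart in each of these sets, as they did over the other pairs of the first 10 Mb of chromosome 4 with at most 4 PETs.

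By distance, the HGFAC pairs stood at -0.59 for 5 to 20 kb and -0.61 for 20 to 50 kb, where the PETs were 9 against 14 and 20 against 32 (STAG2-null against wild-type). At 50 to 100 kb they stood at -1.69, with 15 and 10 STAG2-null PETs against 38 and 45 wild-type PETs. They stood at -1.23 for 100 to 200 kb, -0.87 for 200 to 500 kb and -1.81 over 500 kb, the last on 5 against 18 PETs. The groups did not overlap in any of the 6 classes, nor in any class of the other pairs of the first 10 Mb of chromosome 4. The median distance of the PETs was 97.8 kb in each of the 4 libraries, which is the distance of the strongest partner.

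Other pairs with both anchors in the first 10 Mb of chromosome 4 were also lower in STAG2-null cells. These 7855 pairs held 4904 and 5716 PETs in wild-type 1 and 2 and 3444 and 3121 in STAG2-null 1 and 2, a log2 ratio of -0.65. Their ratio was -0.52 at 5 to 20 kb, -0.63 at 20 to 50 kb, -0.89 at 50 to 100 kb, -0.86 at 100 to 200 kb, -0.59 at 200 to 500 kb and -0.54 over 500 kb. HGFAC pairs were within 0.1 of this up to 50 kb and lower in every class beyond. The rest of chromosome 4 stood at -0.28. All pairs of the stretch together made up 0.756% and 0.764% of the PETs of wild-type 1 and 2 and 0.513% and 0.454% of those of STAG2-null 1 and 2, and the part of this broad difference in the HGFAC values was not tested.

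**Figure D3:**
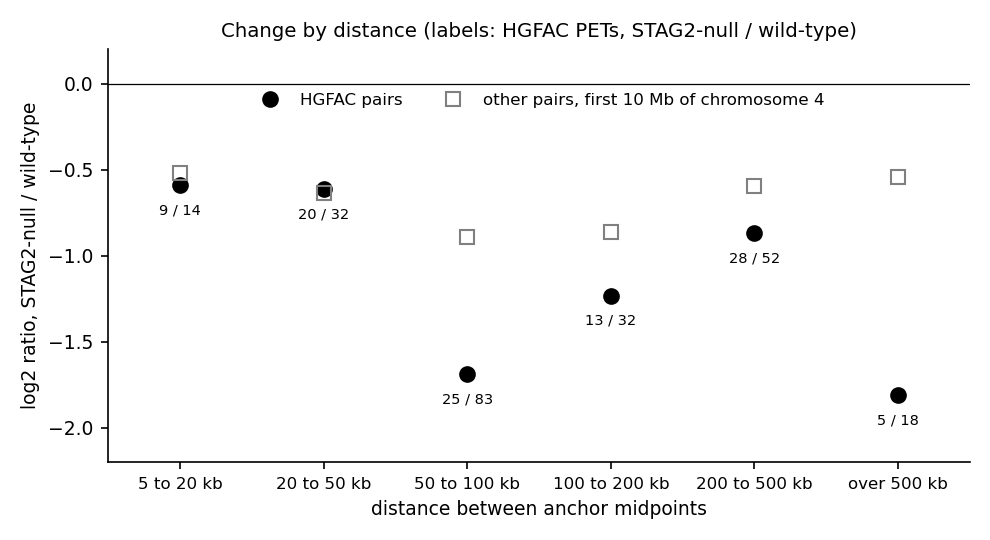
Log2 ratio of mean normalised PETs, STAG2-null over wild-type (vertical axis), by distance class for HGFAC pairs (filled circles) and the other pairs of the first 10 Mb of chromosome 4 (open squares). The labels give the HGFAC PETs of the STAG2-null and wild-type groups, and the gap is widest over 500 kb and at 50 to 100 kb.

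Set against that stretch, HGFAC pairs made up 2.06% (95% Wilson interval 1.70 to 2.49) and 2.19% (1.85 to 2.60) of its PETs in wild-type 1 and 2. They made up 1.57% (1.21 to 2.04) and 1.42% (1.06 to 1.90) in STAG2-null 1 and 2. The shares did not overlap by genotype, although the counting intervals of each wild-type library overlapped those of both STAG2-null libraries. Relative to the other pairs of the stretch, the HGFAC change was -0.51 on the log2 scale, with a spread between libraries of 0.123 (SD of log2 shares, combined over the genotypes). It was -0.44 with the other pairs weighted to the distances of the HGFAC pairs, and -0.36 without the 2 strongest partners.

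Other places in the same stretch changed as much. In tiles of 16 kb with at least 100 PETs, HGFAC ranked 9 of 124 from the lowest, at -1.16 against a median of -0.63, and 123 of the 124 tiles lay below 0. Among the 104 anchors with at least 100 PETs it ranked 7, with the lowest at -1.45. The 17 other tiles within 200 kb of HGFAC, a distance set after the values were seen, had a median of -0.87 and ranged from -1.15 to -0.53. The 106 tiles beyond had a median of -0.56 and ranged from -1.62 to 0.0078. Tiles and anchors here kept their PETs with HGFAC. Nearby tiles thus partly repeat the PETs that HGFAC was picked on, and the difference by distance was not tested.

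**Figure D4:**
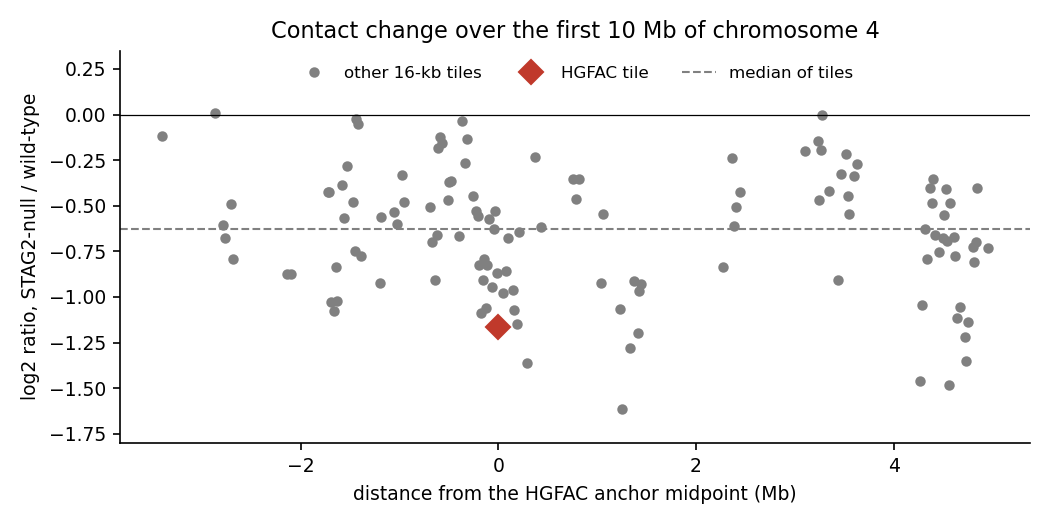
Log2 ratio of normalised PETs, STAG2-null over wild-type (vertical axis), for 16-kb tiles of the first 10 Mb of chromosome 4 with at least 100 PETs, against their distance in Mb from the HGFAC anchor. The dashed line is the median of -0.63, the diamond is the HGFAC tile at -1.16, and 8 of the other tiles lie lower.

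The partner anchors were then tested on PETs that the choice of HGFAC did not use, with every HGFAC pair left out. Which anchors counted as partners was not free of the contrast. With HGFAC, 40 of the 80 were seen in wild-type alone and 12 in STAG2-null alone. Of 80 partners, 79 had at least 20 other PETs, and 12 fell in STAG2-null cells while 0 rose (edgeR's quasi-likelihood test, adjusted by Benjamini-Hochberg over 60424 anchors). Of those anchors 0.877% changed and 0.501% fell, and of the 433 in the first 10 Mb of chromosome 4, 8.55% fell. At an unadjusted p under 0.05, 36 partners were lower and 0 higher, against 6.16% lower of all anchors and 40.4% of those of the stretch. The partners also share PETs, since 1073 pairs join 1 partner to another and each of their PETs counts at both anchors. These pairs held 1233 STAG2-null PETs and 1939 wild-type PETs. The 12 and the 36 are therefore not counts of independent outcomes. The shares of the stretch include the partners themselves. Of its 354 anchors without a PET to HGFAC, 25 fell after adjustment in edgeR and 39.3% were lower before it. The count of partners that fell was thus above both shares after adjustment and close to the share of the stretch before it, and the difference was not tested. The median log2 change of the 79 was -0.57, against -0.64 for the 354 anchors of the stretch without a PET to HGFAC and 0.0013 for all anchors. Scaled to the PETs of each 10 Mb window, 0 partners passed in edgeR (6 lower and 2 higher unadjusted) and their median was 0.09. DESeq2 called 0 (14 unadjusted), with an adjusted p given for 6 of them. Without STAG2-null 1, STAG2-null 2 or wild-type 2 edgeR called 0 of them, and without wild-type 1 it called 1 (32, 25, 27 and 33 unadjusted and lower, in that order).

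Among the 9 strong partners, 3 fell in their other contacts. The downstream anchor at 47.8 kb fell by 1.01 ± 0.19 (SE), from 160 ± 0.371 to 79.5 ± 9.24 normalised PETs (SD, n = 2; edgeR adjusted p = 0.000543). Its pair with HGFAC had stood at -0.32. The anchor at 68.9 kb upstream fell by 0.84 ± 0.20 (edgeR adjusted p = 0.0125), against -2.77 for its pair with HGFAC, and the one at 189.0 kb upstream fell by 0.82 ± 0.20 (edgeR adjusted p = 0.0139). Scaled to the window, the 3 stood at -0.35, -0.18 and -0.16, none past the threshold. Each lost its call without either STAG2-null library and without wild-type 2, and those at 68.9 and 189.0 kb also without wild-type 1.

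The FLI1-marked anchor at 97.8 kb held 87 and 95 other PETs in STAG2-null and 119 and 143 in wild-type cells. Its log2 change was -0.48 ± 0.17 (edgeR adjusted p = 0.143), and 0.18 once scaled to the window. Its contact with the anchor at 68.9 kb, 28.9 kb apart, held 17 and 14 STAG2-null and 18 and 24 wild-type PETs, a log2 ratio of -0.39. Its contact with the downstream anchor at 47.8 kb, which passes over HGFAC, held 4 and 5 against 8 and 11 PETs (-1.03). For all 7 upstream partners the log2 ratio with HGFAC lay below that of the partner's other contacts, and for both downstream partners it lay above. These differences were not tested, since the HGFAC side of each was picked on the contrast.

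**Figure D5:**
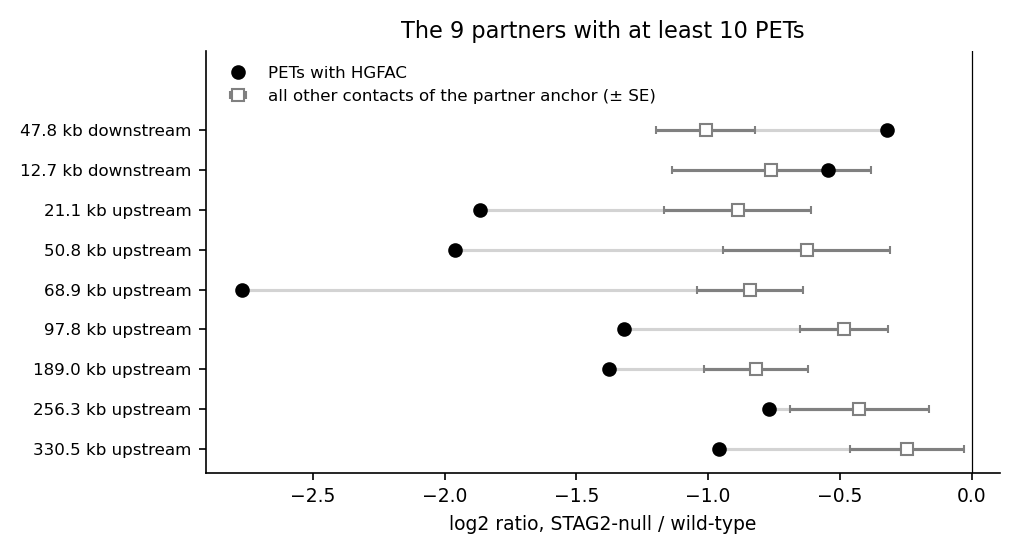
Log2 ratio, STAG2-null over wild-type (horizontal axis), for each of the 9 partners with at least 10 HGFAC PETs, ordered by position. Filled circles are the PETs shared with HGFAC and open squares all other contacts of the partner anchor with their SE, and circles lie left of squares for the upstream and right of them for the downstream partners.

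Pairs that pass over the HGFAC anchor without touching it held 252 and 322 wild-type and 189 and 170 STAG2-null PETs, a log2 ratio of -0.63. Those joining a partner within 120 kb upstream to one within 120 kb downstream held 41 and 57 against 22 and 20 PETs (-1.17). Pairs among the 9 upstream partners within 120 kb held 76 and 109 against 63 and 57 PETs (-0.57), and pairs among the 7 downstream ones 34 and 28 against 14 and 15 (-1.08). The groups lay apart in all 4 sets, as they did in 68.6% of the anchors of the stretch and 21.6% of all anchors. The distance of 120 kb was set after the partners were seen.

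As loops with at least 20 PETs, the pairs at 97.8 and 68.9 kb were fitted in edgeR among 11872 loops, of which 0.194% passed a Benjamini-Hochberg threshold of 0.05 and 0.11% did so in the lower direction. No test of the HGFAC loops is given, since the gene was picked on this contrast, and the loop at 68.9 kb reached 20 PETs through its wild-type libraries. As descriptions, their log2 changes of -1.39 ± 0.43 and -2.75 ± 0.74 (SE) stood at -0.65 ± 0.45 and -2.04 ± 0.76 once scaled to the PETs of each 10 Mb window. The 48 other loops of the stretch had a median of -0.59. The authors' deposited table of 650 differential loops lists 3 at HGFAC, all stronger in wild-type, with log2 fold changes of 1.36 (97.8 kb, adjusted p = 0.0424), 2.72 (68.9 kb, adjusted p = 0.0165) and 1.85 (21.1 kb, adjusted p = 0.0806). These values come from the same genotype contrast that HGFAC was picked on, so they add no separate evidence. All 8 loops of that table in the first 10 Mb of chromosome 4, which include the 3 at HGFAC, were stronger in wild-type. The share over all 650 was not counted, so nothing is read from this. The authors' deposited table of 22680 high-confidence loops holds 6 at HGFAC. In the differential table both HGFAC and RGS12 carry the status UNCH, in a column that elsewhere holds UP, DN or NA and whose header does not say what was measured.

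Other promoters with a like profile were sought among the 190 other anchors with at least 100 PETs that the authors' table of differential loops places, all picked for change. Likeness was the root mean square difference of log2 normalised PETs centred on their mean over the 4 libraries. The closest were QRFP on chromosome 9 (0.145), DACT2 on chromosome 6 (0.218), VAV2 on chromosome 9 (0.220), RUFY4 on chromosome 2 (0.231) and TOR2A on chromosome 9 (0.249). QRFP, which encodes a neuropeptide, held 296 and 354 wild-type and 189 and 155 STAG2-null PETs. With 4 libraries, likeness says little beyond a lower level in both STAG2-null libraries. Of the 18 genes listed for hepatocyte growth factor signalling only HGFAC had a placed promoter, so HGF, MET and the inhibitors SPINT1 and SPINT2 were not analysed here. Of 45 genes listed from the start of chromosome 4, only MSX1, a homeobox gene, was placed, with a log2 change of -0.93 ± 0.27 (edgeR adjusted p = 0.0641).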

How the data were processed

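PETs from SMC1 HiChIP of A673 cells were compared by genotype, with 2 libraries in each group. The authors deposited, for each library, a count of PETs and a p-value per pair of anchors. HiC-Pro and hg19 are named per the submitters' processing notes. The deposited pairs and a column of the high-confidence loops carry the name mango. No other detail of the loop caller is given in the sources used here. Deposited by the authors were 2 further tables, with counts and p-values per loop and log2 fold changes (wild-type over mutant, per the file headers). The deposited p-values per pair were not used.

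The 4 files were joined on anchors and distances taken between midpoints. Anchors and loops with at least 20 PETs were tested with edgeR 4.0.16 (quasi-likelihood, R 4.3.3) on genotype alone, library sizes being totals over all pairs with TMM factors. Calls were made at a Benjamini-Hochberg adjusted p under 0.05, and DESeq2 1.42.0 was an alternative. The fits were first tested on simulated data with 200 features changed 4-fold. They called 90 of these loops (45%) and 118 of these anchors (59%), with 1 and 3 false calls. Many changes of this size would thus be missed. Intervals (95%) cover counting error only, no molecular identifiers being stated. Partners with at least 10 PETs were described singly, and the 5 promoters most like HGFAC were named. Libraries of a group were not copies of each other but differed by little more than counting error. Over loops, chi-square over degrees of freedom was 1.17 between the STAG2-null and 1.06 between the wild-type libraries. This does not show that they were separate cultures. Promoters were placed where 1 anchor of a loop was marked (251 genes). Members and lists were chosen with earlier results of these data known.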

Additional observations from a re-analysis of the deposited data

How the results depend on the processing

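The log2 change of HGFAC contacts kept its direction under every alternative run, from -1.33 to -1.01 when 1 library was left out, and moved to -0.51 with 10 Mb window totals as library sizes. Relative to the other pairs of the stretch it ran from -0.59 to -0.44 without 1 library, at -0.66 for pairs of at most 4 PETs and, set after seeing the data, -0.36 without the 2 largest HGFAC pairs and -0.57 against pairs within 1 Mb. Scaling cannot move this difference, by construction. Calls over all loops were 23 (13 lower and 10 higher in STAG2-null), and 8 with plain library totals (1 lower, 7 higher), 6 with window totals (1 lower, 5 higher), 0 with at least 10 PETs (2666 unadjusted in edgeR), 0 in DESeq2 (141 unadjusted) and 0 to 12 without 1 library (0 without either wild-type library, 825 and 769 unadjusted). Calls over anchors were 530, and 0 with window totals (4534 unadjusted in edgeR), 21 in DESeq2 and 0 to 66 without 1 library (0 without STAG2-null 1, 5892 unadjusted). With HGFAC pairs kept in, edgeR called 304 anchors lower and 225 higher, and 5 and 1 from pairs of at least 20 kb (5758 unadjusted). Under window totals the other contacts of some upstream partners turned positive, to 0.41 (330.5 kb), 0.23 (256.3 kb), 0.18 (97.8 kb) and 0.031 (50.8 kb). Those of the other upstream partners stayed negative, at -0.23 (21.1 kb), -0.18 (68.9 kb) and -0.16 (189.0 kb). Without 1 library the value at 330.5 kb ran from -0.47 to 0.064 (without wild-type 2). Causes were not tested. With the replicate number as a block the HGFAC change was -1.17, with 24 loops and 487 anchors called. Same-numbered libraries deviated with r = 0.0031 over loops. Such deviations are mostly counting error at this depth, so this check cannot decide whether same-numbered libraries were paired. Depth limits single pairs, since 62 of 80 held at most 4 PETs.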
